A study of Mus musculus with 6 samples.

Results

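Immunoglobulin heavy and light chain segments were represented by 31 of the 35556 probe sets on the array, a probe set being a group of short probes summarised to 1 value. A probe set was taken when at least 1 of its gene symbols named a V, D, J or constant segment of the heavy, kappa or lambda locus. Of the 31, 10 belonged to the heavy chain locus, 19 to the kappa locus and 2 to the lambda locus, and 16 carried several symbols. RNA came from RAG2+ B lineage cells of RAG2-GFP/129Sve mice, whose green fluorescent reporter of Rag2 marks cells that recombine receptor genes or did so recently. The cells were sorted from the small intestinal lamina propria, the connective tissue under the gut epithelium, or from bone marrow, at 17 to 25 days after birth, with no treatment in either group. Each tissue gave 3 pools, each pool 1 array, and 8 to 12 mice went into each experiment. A pool mixes animals and all sorted cells, so neither single mice nor clones of B cells can be told apart.

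B cells build their receptors by joining V, D and J segments of the heavy chain and V and J segments of a light chain, kappa or lambda. The joined exon is spliced to a constant region, mu (Ighm) in young B cells, while gamma (such as Ighg3) and alpha (Igha) are used after class switching. Heavy chain joining comes first, at the pro-B stage, and light chain joining follows in pre-B cells. A cell may join its kappa locus again to replace a light chain (receptor editing), which can reach V segments farther from the J segments. Alpha heavy chains are a hallmark of the plasma cells of the gut.

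The 31 probe sets named 30 different symbols that met the rule, all of them in the RefSeq gene table: 3 heavy V, 19 kappa V, 2 lambda V, Iglc1, Igkj1, Igkc, Ighm, Igha and Ighg3. RefSeq lists 183 heavy V and 162 kappa V segments and pseudogenes, so most segments had no named probe set here. Only 6 probe sets named constant regions alone (3 Ighm, 2 Igha, 1 Ighg3) and 14 named kappa V segments alone. No probe set named heavy V segments without a constant region; 4 named both. A further 5 named kappa V segments together with Igkc (4 probe sets) or Igkj1 (1 probe set), and both lambda probe sets named Iglv1, Iglc1 and Iglv2. Such a probe set cannot tell its segments apart. No source used here places the probes of any member along the joined transcript. A constant region symbol, also where it stands alone, may therefore stand for probes elsewhere in that transcript. Igkv4-77 and Ighv1-33, named in mixed probe sets, are pseudogenes in RefSeq.

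Several probe sets rest on the same sequence records, so they are not separate measurements. The 2 Igha probe sets share 7 of 7 records, and the 2 with Ighg3, Igha, Ighv1-33 and Ighv1-26 share 9 of 11 and 14. Probe sets 10545184 and 10545187, of Igkv4-59, Igkv4-70, Igkc and Igkv4-80, share 12 of 13 and 15. Probe sets 10545196 and 10545198, which also name Igkc, share 14 of 20 and 20, and each shares 6 or 7 with 10545184 and with 10545187. The 2 probe sets of Igkv9-120 with Igk-V21, Map3k20 and Igkv1-117 share 7 of 11 and 20, and Map3k20 is a kinase gene outside the immunoglobulin loci.

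All 31 were tested. Mean values over the 6 arrays ran from 2.66 for Igkv6-14 to 8.01 for Igha probe set 10403034 on the log2 scale, and 13 of 31 lay above 5.46, the median of such means over all probe sets. The highest value in any pool was 8.91, for Igkv1-133 in lamina propria pool 3. The plot of values by pool shows tight marrow pools beside scattered lamina propria pools for several kappa V members.

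**Figure D1:**
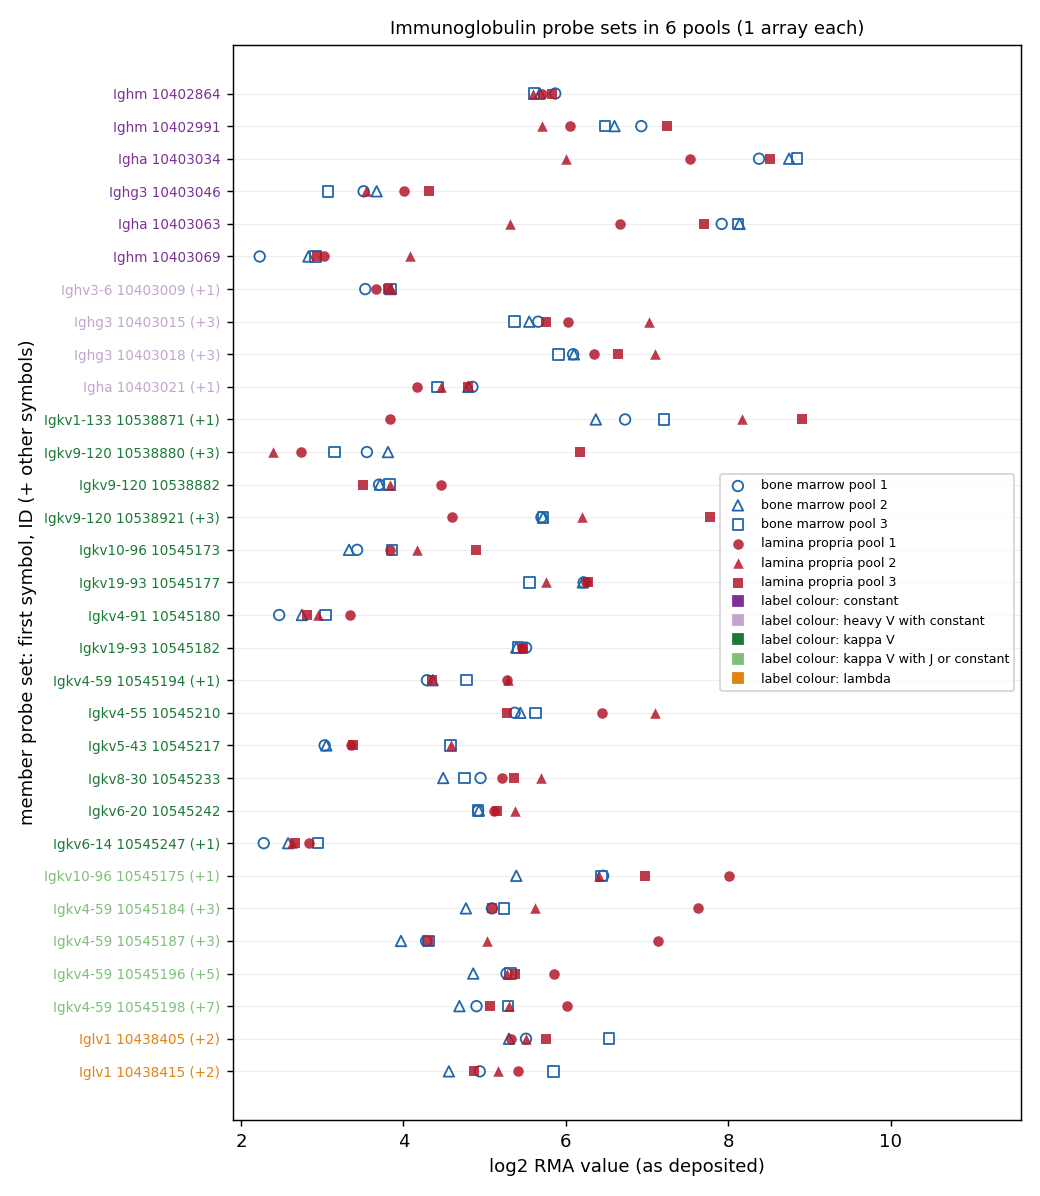
Log2 RMA value (horizontal axis) of each of the 31 immunoglobulin probe sets (vertical axis; first symbol, ID and number of other symbols) in the 3 lamina propria pools (filled red) and the 3 bone marrow pools (open blue), 1 point for each array, with label colours giving the group. Igkv1-133 runs from 3.83 to 8.91 in the lamina propria and from 6.37 to 7.21 in the marrow.

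The lamina propria arrays were not alike. Over all probe sets, pools 1 and 2 correlated with the other arrays at 0.759 to 0.843, while pool 3 correlated with the marrow arrays at 0.923 to 0.946, across probe sets, which are not independent. Defining B lineage genes were well measured in every pool: the 11 measured markers averaged 9.25 to 9.70 in the lamina propria and 9.68 to 10.28 in the marrow, and none lay below the array median in all arrays. Of the 11, 1 had a positive difference, and 3 lay below the marrow in every pool, against 7.06% of all probe sets. All 11 had a marrow mean of 7 or more, levels at which the median differences of all probe sets were also negative. Markers of other cells were measured beside them. T cell markers averaged 5.25 to 5.56 in the lamina propria and 4.97 to 5.10 in the marrow (12 of 12 measured with a positive difference), and intestinal epithelium markers 5.35 to 5.66 and 4.97 to 5.04 (11 of 11). Of all probe sets, 65.2% had a positive difference. In these 2 lists, 7 of 12 and 4 of 11 markers lay above the marrow in every pool, against 13.2% of all probe sets. The median differences of these 2 lists were 0.43 and 0.46. Those of all probe sets were 0.31, 0.34 and 0.27 at marrow levels of 3 to 4, 4 to 5 and 5 to 6. Macrophage and monocyte markers averaged 5.36 to 5.66 and 5.22 to 5.50 (7 of 11 positive), granulocyte markers 4.81 to 5.30 and 4.94 to 6.10 (4 of 9), and mature B markers 5.37 to 5.53 and 5.05 to 5.40 (3 of 5). Above the marrow in every pool were 3 of 11, 1 of 9 and 2 of 5 of them. The part of these cells in the results on immunoglobulin probe sets was not tested.

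No immunoglobulin probe set passed the threshold of 0.05 for the adjusted p between the tissues (limma, Benjamini-Hochberg over all 35556 probe sets; smallest adjusted p among the 31, 0.436). Over all probe sets, 0% were called higher and 0.00281% lower. At an unadjusted p under 0.05, 2 of 31 were higher, against 4.1% of all probe sets, and 1 was lower, against 6.76%. All 3 lamina propria pools lay above all 3 marrow pools for 5 of 31 members (16.1%), against 13.2% of all probe sets, and below them for 1 (3.23%), against 7.06%. In the smaller set of probe sets listed in the gene table these shares were 14.3% and 7.24%. The members' shares are near this background. The median difference, lamina propria minus bone marrow, was 0.28 for the members and 0.20 for all probe sets. In sorted bulk samples, fewer cells with a transcript and less of it per cell cannot be told apart.

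The largest difference of any immunoglobulin probe set, in either direction, was that of an Igha probe set, lower in the lamina propria. Igha is the constant region of IgA, but where the probes of this probe set lie along the transcript is not known. Igha probe set 10403063 read 6.67, 5.31 and 7.70 in lamina propria pools 1, 2 and 3 and 7.92, 8.14 and 8.12 in marrow pools 1, 2 and 3. All lamina propria pools lay below the marrow, pool 2 by the most and pool 3 by the least. The difference was -1.50 (95% interval -2.90 to -0.10; 2.83-fold; limma adjusted p = 0.436). Igha probe set 10403034 read 7.53, 6.0 and 8.52 against 8.38, 8.75 and 8.85, differing by -1.31 (95% interval -2.80 to 0.18), with pool 3 inside the marrow range. Without lamina propria pool 3, probe set 10403063 passed as lower (difference -2.07, limma adjusted p = 0.0457), as did 7.05% of all probe sets. Without pool 2 the difference was -0.87, and with pool 3 as the only lamina propria array it was -0.36.

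The Igha values sat in a range of levels where many other probe sets were also lower. Of the 1903 probe sets with a marrow mean of 8 to 9, the median difference from the marrow mean was -1.17, -1.41 and -0.05 in lamina propria pools 1, 2 and 3. Igha probe set 10403063 stood at -1.39, -2.75 and -0.36 in the same pools, and probe set 10403034 at -1.14, -2.66 and -0.14. In pool 2 both thus lay farther below the marrow than that median, and in pool 1 close to it. The 4 members with a marrow mean of 6 to 7 (Ighm 10402991, Igkv1-133, Igkv10-96 with Igkj1, and Ighv1-33 probe set 10403018) had a median difference of 0.43, against -0.02 for all probe sets in that range. The plot against marrow level sets every member beside the median of its range.

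**Figure D2:**
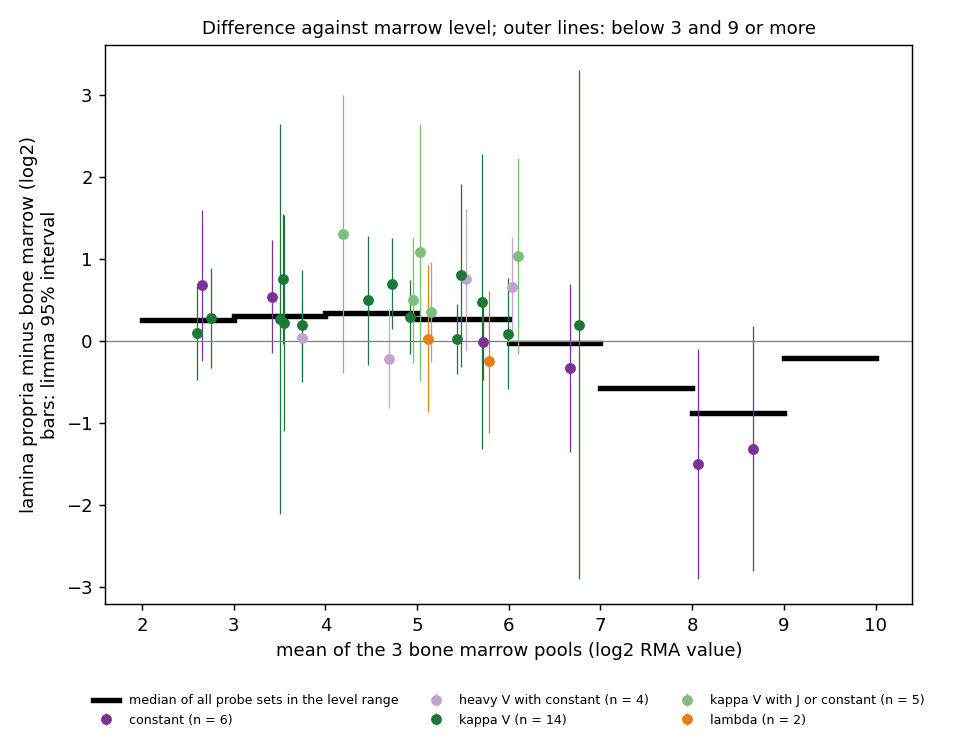
Lamina propria minus bone marrow difference (vertical axis, log2, bars giving the limma 95% interval) against the mean of the 3 marrow pools (horizontal axis, log2) for the 31 immunoglobulin probe sets by group; black lines give the median difference of all probe sets in each range of marrow level. The black lines run from 0.34 at levels of 4 to 5 down to -0.88 at 8 to 9, where the 2 Igha probe sets lie at -1.31 and -1.50.

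Ighm, the constant region of IgM, had 3 probe sets with 3 patterns. Ighm probe set 10402991 read 6.05, 5.71 and 7.25 in lamina propria pools 1 to 3 and 6.93, 6.60 and 6.48 in the marrow. Pools 1 and 2 lay below every marrow pool and pool 3 above every one, and the difference was -0.33 (95% interval -1.35 to 0.69). Ighm probe set 10402864 was nearly flat, at 5.71, 5.59 and 5.83 against 5.87, 5.68 and 5.61, with a difference of -0.01 (95% interval -0.47 to 0.46). Ighm probe set 10403069 was dim, at 3.02, 4.08 and 2.93 against 2.23, 2.83 and 2.92. Every lamina propria pool lay above the marrow pools, pool 3 only just, and the mean difference came to 0.68 (95% interval -0.24 to 1.60). Its adjusted p by limma was 0.437. Levels of different probe sets cannot be set against each other, so no order among Ighm, Igha and Ighg3 is given.

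Ighg3, a gamma constant region, read 4.01, 3.54 and 4.31 in the lamina propria and 3.51, 3.67 and 3.07 in the marrow on its own probe set, 10403046. The tissues overlapped and differed by 0.54 (95% interval -0.15 to 1.23). The 6 constant region probe sets had a median difference of -0.17, against 0.20 for all probe sets, with 2 positive and 4 negative. By pool, their median stood at -0.31, -0.54 and 0.19 from the marrow mean in lamina propria pools 1, 2 and 3. It was 0.02 without lamina propria pool 2 and -0.43 without lamina propria pool 3, so its size depended on both pools and its sign on pool 2.

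The 4 probe sets that named heavy V segments with a constant region had a median difference of 0.35, with 3 positive. The 2 with Ighg3, Igha, Ighv1-33 and Ighv1-26 were higher in every lamina propria pool, highest in pool 2. Probe set 10403018 read 6.35, 7.10 and 6.64 in lamina propria pools 1 to 3 and 6.09, 6.10 and 5.91 in the marrow, a difference of 0.66 (95% interval 0.06 to 1.27; limma adjusted p = 0.436). Probe set 10403015 read 6.03, 7.03 and 5.75 against 5.66, 5.55 and 5.37, a difference of 0.75 (95% interval -0.12 to 1.61). The values of Ighv3-6 with Igha (10403009) lay between 3.53 and 3.85 in all 6 pools and differed by 0.04 (95% interval -0.44 to 0.51). Igha with Ighv1-33 (10403021) read 4.17, 4.46 and 4.79 against 4.85, 4.80 and 4.42 and differed by -0.22. The 6 probe sets that named Igha thus did not share a direction, and the 2 that named it alone were the lowest.

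Kappa V segments had positive differences in the values as deposited, most of them small. All 14 probe sets of kappa V segments alone were positive, with a median of 0.27 and a range from 0.03 to 0.80. Among all probe sets, at any level, the median was 0.20 and 65.2% were positive. Most of the 14 had a marrow mean below 6. Medians of all probe sets were 0.26 at levels under 3 and 0.31 at 3 to 4. They were 0.34 at 4 to 5 and 0.27 at 5 to 6. The median of the 14 was thus close to that of other probe sets at such levels. The share of positive differences at these levels is not given. With cyclic loess normalization, which brought the median of all probe sets from 0.20 to 0.02, the median of the 14 was 0.03, and 5 of them had no positive difference (Igkv5-43, Igkv6-14, both of Igkv19-93, and Igkv9-120 probe set 10538882). With array weights, 4 of the 14 had none. Only Igkv8-30 and Igkv6-20, 2 of the 14, lay above the marrow in every lamina propria pool, against 13.2% of all probe sets. Igkv8-30 read 5.22, 5.70 and 5.36 in lamina propria pools 1 to 3 and 4.95, 4.49 and 4.75 in the marrow. Its difference of 0.70 (95% interval 0.14 to 1.26; 1.62-fold; limma adjusted p = 0.436) had the smallest unadjusted p of all immunoglobulin members, 0.0224. Igkv6-20 read 5.12, 5.37 and 5.15 against 4.92, 4.93 and 4.92, a difference of 0.29 (95% interval -0.16 to 0.74).

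The 5 brightest kappa V probe sets ranged from the steadiest to the most variable member. Igkv19-93 probe set 10545182 lay between 5.39 and 5.51 in all pools, and its other probe set, 10545177, between 5.55 and 6.27. Igkv4-55 read 6.45, 7.10 and 5.27 in lamina propria pools 1 to 3 and 5.37, 5.44 and 5.63 in the marrow. Pools 1 and 2 lay above the marrow and pool 3 below it, with a difference of 0.80 (95% interval -0.32 to 1.91). Without lamina propria pool 3 it passed as higher (difference 1.30, limma adjusted p = 0.0416), as did 7.68% of all probe sets.

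Igkv1-133, whose probe set 10538871 also names Igkv1-135, had the widest spread of any member. It read 3.83, 8.17 and 8.91 in lamina propria pools 1, 2 and 3, a range of 5.08 on the log2 scale, and 6.73, 6.37 and 7.21 in the marrow. Relative to the marrow mean the pools stood at -2.94, 1.40 and 2.14. Its SD over the lamina propria pools, 2.75, was larger than that of 98.9% of all probe sets, while its marrow SD was 0.42. The mean difference of 0.20 (95% interval -2.90 to 3.30) therefore describes no pool, and it was -0.77 without lamina propria pool 3 and 1.77 without pool 1.

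The 2 probe sets of Igkv9-120 with Igkv1-117 were high in lamina propria pool 3. Probe set 10538921 read 4.60, 6.20 and 7.77 in lamina propria pools 1 to 3 and 5.70, 5.72 and 5.72 in the marrow. Pool 1 lay below and pools 2 and 3 above a marrow that barely varied (SD 0.01). Probe set 10538880 read 2.74, 2.40 and 6.17 against 3.55, 3.81 and 3.15, with pool 3 the only one above the marrow. The probe set of Igkv9-120 alone, 10538882, did not share this pattern, at 4.46, 3.83 and 3.50 against 3.70, 3.71 and 3.83.

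The other kappa V probe sets were dim. Igkv10-96 (10545173) read 3.83, 4.17 and 4.89 against 3.43, 3.33 and 3.86, again highest in pool 3, and differed by 0.76 (95% interval -0.04 to 1.55). Igkv5-43 was high in 1 pool of each tissue, at 4.58 in lamina propria pool 2 and in marrow pool 3, and lay between 3.03 and 3.38 in the rest. Igkv4-91, Igkv6-14 with Igkv6-15, and Igkv4-59 with Igkv4-80 (10545194) differed by 0.28, 0.10 and 0.50. Igkv4-59 with Igkv4-80 stood at 5.27 and 5.29 in lamina propria pools 1 and 2 and at 4.35 in pool 3, against 4.29 to 4.78 in the marrow.

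By place in the locus, counted in kappa V segments from the J segments in RefSeq (GRCm38), members ran from Igkv6-14 at position 15 to Igkv1-135 at position 160 of 162. The 4 kappa V probe sets farthest from the J segments, of Igkv1-133 and Igkv9-120, had median deviations from the marrow mean of -0.94, 0.28 and 2.10 in lamina propria pools 1, 2 and 3. The 4 nearest, of Igkv6-14, Igkv6-20, Igkv8-30 and Igkv5-43, had 0.22, 0.71 and 0.14. On the median, the far segments were thus low in pool 1 and high in pool 3, with probe set 10538882 an exception to both, and the near ones varied less between pools. This split was made after the values were seen, 3 of the 4 far probe sets name Igkv9-120, and no test was made.

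**Figure D3:**
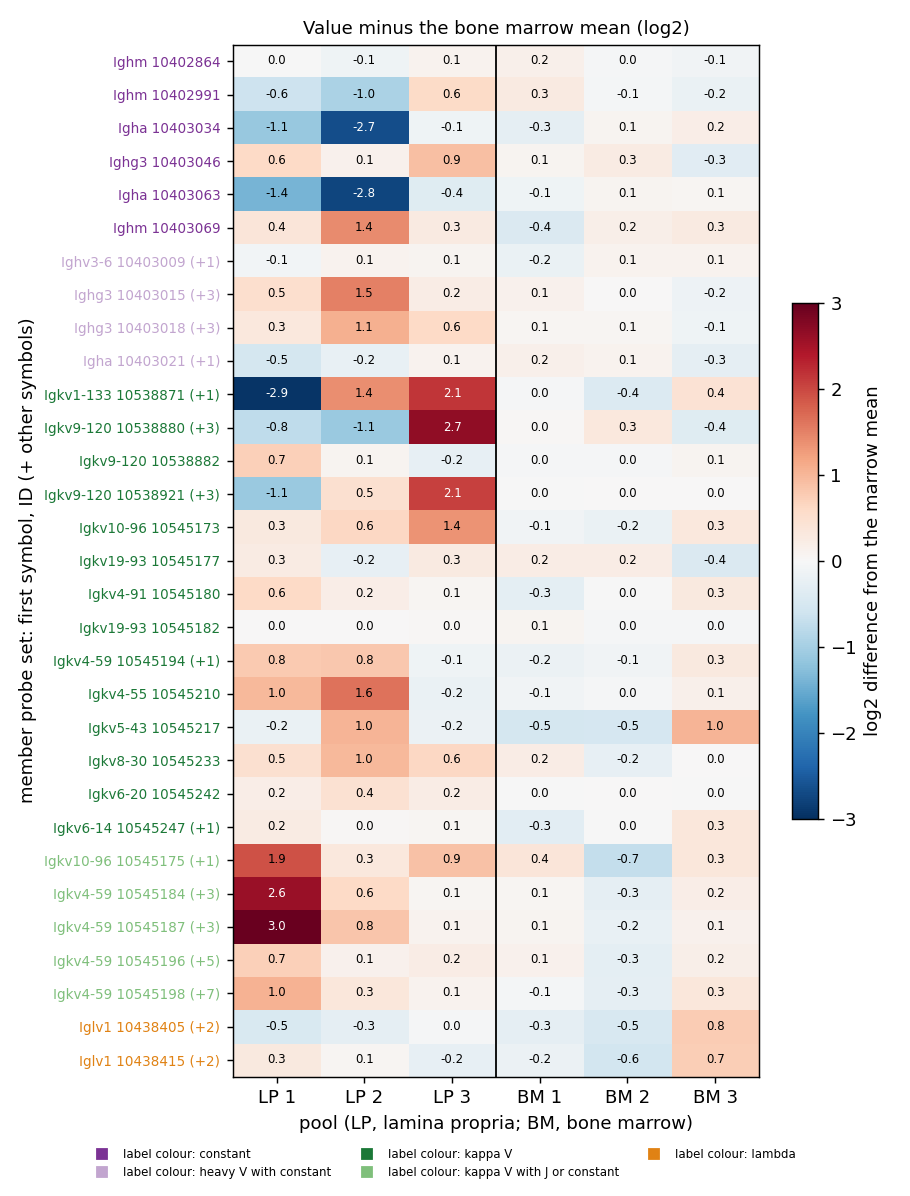
Value of each immunoglobulin probe set minus its mean over the 3 bone marrow pools (colour and printed number, log2) by pool (columns), with probe sets in rows and label colours giving the group. Pool 1 of the lamina propria stands out for Igkv4-59 with Igkc (2.60 and 2.95 above the marrow mean) and pool 3 for Igkv9-120 and Igkv1-133 (2.06 to 2.67 above it).

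Among probe sets that named kappa V segments with Igkc or Igkj1 were the 3 largest positive differences of all members, and all 5 were highest in lamina propria pool 1. The other 2 differed by 0.50 and 0.35, less than Igkv4-55 and Igkv8-30. Igkc is the constant region of all kappa chains and Igkj1 the first of the kappa J segments. Probe set 10545187 (Igkv4-59, Igkv4-70, Igkc and Igkv4-80) read 7.14, 5.03 and 4.30 in lamina propria pools 1 to 3 and 4.28, 3.97 and 4.31 in the marrow. Pool 1 lay 2.95 above the marrow mean, pool 2 lay 0.84 above it and pool 3 was inside the marrow range. The difference was 1.30 (95% interval -0.39 to 3.00; 2.47-fold; limma adjusted p = 0.437). Probe set 10545184, of the same segments, read 7.63, 5.62 and 5.09 against 5.09, 4.77 and 5.24, a difference of 1.08 (95% interval -0.49 to 2.64).

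The 2 probe sets that added further Igkv4 segments were also highest in pool 1, with smaller steps. Probe set 10545198, with 8 symbols, read 6.01, 5.30 and 5.07 against 4.90, 4.69 and 5.29, and probe set 10545196, with 6 symbols, read 5.86, 5.27 and 5.37 against 5.27, 4.86 and 5.32. Pool 1 was the highest lamina propria pool and above every marrow pool in all 4 probe sets that named Igkc. These 4 all share sequence records with one another, so they are not separate measurements. Igkv10-96 with Igkj1 (10545175) read 8.01, 6.41 and 6.98 against 6.46, 5.39 and 6.44, also highest in pool 1, and differed by 1.04 (95% interval -0.16 to 2.23). It shares 4 of its 9 records with the probe set of Igkv10-96 alone, which has only those 4 and was highest in pool 3.

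The 5 probe sets had a median difference of 1.04, which was 0.32 without lamina propria pool 1, 0.69 without marrow pool 2 and 0.11 with pool 3 as the only lamina propria array. Lamina propria pool 1 lay above every marrow pool in all 5, against 54.2% of all probe sets, and at least 1 above the marrow mean in 4, against 5.86%. Pool 2 lay above every marrow pool in 3, against 54.1%, and at least 1 above the marrow mean in 0, against 8.45%. Pool 3 lay above every marrow pool in 2, against 24.8%, and at least 1 above the marrow mean in 0, against 4.07%. None of the 5 had all lamina propria pools above all marrow pools. Because the probe sets that named Igkc share records, these counts are not counts of separate measurements.

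Plasma cell markers, the cells with the most kappa and IgA transcripts, were measured beside these values. The 12 measured markers averaged 6.27, 6.33 and 6.55 in lamina propria pools 1, 2 and 3 and 6.39, 6.23 and 6.09 in the marrow. Of the 12, 7 had a positive difference, against 65.2% of all probe sets, and 3 lay above the marrow in every pool, against 13.2%. Jchain, which links IgA and IgM units, read 4.79, 3.83 and 4.64 against 3.24, 2.78 and 3.01 (difference 1.41, 95% interval 0.66 to 2.16, limma adjusted p = 0.322), below the array median in every pool. Prdm1, the regulator of plasma cell identity, read 5.05, 4.33 and 4.89 against 4.27, 4.0 and 4.14. Tnfrsf17, a receptor for plasma cell survival signals and the third without overlap, read 5.46, 5.82 and 5.14 against 5.13, 4.68 and 5.04. Prdm1 and Tnfrsf17 differed by 0.62 and 0.52. These 3 had marrow means of 3.01, 4.13 and 4.95, and medians of all probe sets were 0.31 at levels of 3 to 4 and 0.34 at 4 to 5. Negative differences were found for Sec11c (-0.60), Slamf7 (-0.56), Mzb1 (-0.54), Creld2 (-0.23) and Sdc1 (-0.03). The markers did not share an order of the lamina propria pools: 6 of the 12, Jchain and Prdm1 among them, were highest in pool 1, 2 in pool 2 and 4 in pool 3. Whether plasma cells had a part in the kappa values was not tested.

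The lambda locus gave the reverse picture, with variation in the marrow. Probe set 10438405 (Iglv1, Iglc1 and Iglv2) read 5.33, 5.51 and 5.75 in lamina propria pools 1 to 3 and 5.51, 5.30 and 6.53 in the marrow. Probe set 10438415, of the same segments, read 5.41, 5.17 and 4.87 against 4.94, 4.56 and 5.85. Marrow pool 3 was the highest array in both. The differences were -0.25 (95% interval -1.12 to 0.61) and 0.03 (95% interval -0.86 to 0.93), with medians of 0.26 without marrow pool 3 and -0.11 with it. The marrow SDs, 0.65 and 0.66, were larger than those of 87.9% and 88.1% of all probe sets, and the lamina propria SDs were 0.21 and 0.27.

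Across the 31 probe sets, the SD over pools had a median of 0.49 in the lamina propria and 0.24 in the marrow, against 0.41 and 0.21 over all probe sets. It was larger in the lamina propria for 22 of 31 members (71.0%) and for 77.4% of all probe sets, so a wider spread there was common to most probe sets. Correlations across the 31 members, which share sequence and are not independent, were 0.93 to 0.98 between marrow arrays, 0.84 to 0.90 between lamina propria pool 3 and the marrow, and 0.49 to 0.69 among the lamina propria pools. An SD over 1 was found for 7 members in the lamina propria and 0 in the marrow, against 14.2% and 5.44% of all probe sets. The 7 were Igkv1-133, 2 probe sets of Igkv9-120 with Igkv1-117, 2 of Igkv4-59 with Igkc, and both of Igha alone. The highest lamina propria value was in pool 1 for all 5 kappa V probe sets with Igkc or Igkj1, and in pool 3 for 5 of the 6 constant region probe sets.

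**Figure D4:**
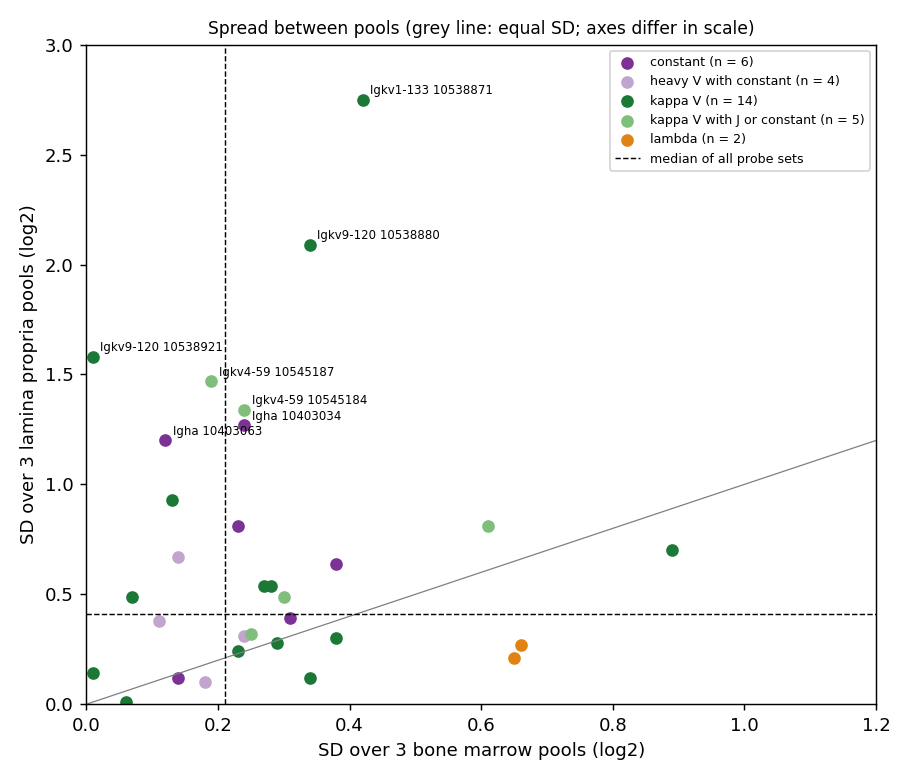
SD over the 3 lamina propria pools (vertical axis, log2) against SD over the 3 bone marrow pools (horizontal axis, log2, on another scale) for the 31 immunoglobulin probe sets by group, with dashed lines at the medians of all probe sets (0.41 and 0.21). The 7 labelled probe sets exceed an SD of 1 in the lamina propria, and both lambda probe sets lie below the line of equal SD.

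Genes that assemble or display the receptor mostly had lower means in the lamina propria. None of the 23 measured genes of this list passed. Below the marrow on the mean were 17, against 34.8% of all probe sets, and 5 lay below it in every pool, against 7.06%. The list's median difference was -0.36. Of the 23, 22 had a marrow mean of 7 or more, where the median difference of all probe sets was -0.57 at levels of 7 to 8, -0.88 at 8 to 9 and -0.21 at 9 or more. Rag1 and Rag2, which form the recombinase, read 9.75, 9.68 and 10.47 against 10.92, 10.99 and 11.15, and 5.67, 5.75 and 6.06 against 7.76, 8.49 and 8.28. Their differences were -1.05 and -2.35 (limma adjusted p = 0.386 and 0.109), with no overlap between the tissues. Pou2af1, a coactivator at the octamer element of immunoglobulin promoters, differed by -0.49 (95% interval -1.03 to 0.05) and Pou2f2, which binds that element, by 0.11 (95% interval -0.58 to 0.80). Igll1 and Vpreb1, parts of the surrogate light chain, had differences of 0.00 and -0.06. Cd79a, the signalling chain of the receptor, differed by 0.04, and its partner Cd79b by -0.52 with lamina propria pools at 10.18, 7.22 and 9.89 against 9.43 to 9.75. Irf4, a factor that promotes kappa joining and plasma cell formation, read 9.64, 6.05 and 9.22 against 8.17, 7.99 and 8.53. Pool 2 was the lowest lamina propria pool for both probe sets of Igha alone. In this list it was the lowest for Irf4, Cd79b, Rag1, Syk, Blnk, Irf8, Yy1 and Ezh2, and pool 1 or 3 for all other genes. Pool 2 was the highest for 8 of the 23 genes of this list. Over all probe sets, its median from the marrow mean was -0.92 at levels of 7 to 8, -1.41 at 8 to 9 and -0.24 at 9 or more.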

How the data were processed

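Total RNA of 6 sorted pools (4.5 to 47 ng, amplified with a whole-transcriptome kit, per the labels' protocols) was hybridised to 1 array each. Per the submitters' processing notes, RMA was run with Affymetrix Expression Console, version 1.3.0.187, and what the authors deposited is on the log2 scale. No source used here gives its settings or a genome build. The deposited values were used without a filter. Array medians lay between 5.34 and 5.48, but the interquartile range was 2.00 and 1.94 in lamina propria pools 1 and 2 and 2.41 to 2.47 in the other 4 arrays. Precision is limited by how few arrays there are.

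Gene symbols came from the platform's gene table, which lists 23410 of the 35556 probe sets and not the other 12146. A probe set whose symbols fell in several groups was given apart. By the rule for naming, all constant and lambda probe sets, the 5 brightest of a V group and up to 4 without overlap in each direction have full values; others shown by pool were added after their values were seen. Genes of the lists were read from probe sets with 1 symbol, the brightest where there were several.

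The model was fitted in limma 3.58.1 (R 4.3.3) to all probe sets, with lmFit, then eBayes, no trend and no block. P-values are two-sided, and Benjamini-Hochberg adjustment covered all 35556. The script was tested on simulated data. Pools were the replicates, so p-values set the tissue difference against the spread between pools. That spread was moderated over all probe sets and taken as equal in both tissues. With 3 arrays a tissue, permutation reaches no two-sided p under 0.1. The members and lists were chosen with earlier results of these data known, as was the comparison without lamina propria pools 1 and 2. Alternatives were a block for pool number, leaving out dim probe sets (mean at or below the median of means), quantile and cyclic loess normalization, a variance trend with robust estimation, weights for arrays, probe sets with 1 symbol only and leaving out each array. Figures were drawn with matplotlib 3.10.9.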

Additional observations from a re-analysis of the deposited data

How the results depend on the processing

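With the pool number as a replicate block, no member was called (0 higher, 0 lower) and the medians were -0.17 for constant, 0.35 for heavy V with constant, 0.27 for kappa V, 1.04 for kappa V with J or constant and -0.11 for lambda, as without it. The deviations of same-numbered pools correlated at 0.087, 0.035 and 0.124. The sample titles give the pools only a number. These correlations, from few arrays, cannot decide whether same-numbered pools shared mice or a processing day. No member was called with any alternative that kept all arrays, or with lamina propria pools 1 and 2 left out. Leaving out 1 array, 0 to 1 were called higher and 0 to 1 lower, the calls both without lamina propria pool 3, and 6 to 12 members lay above and 1 to 4 below the other tissue without overlap. Overlap among fewer arrays is less likely by construction. Members without overlap and higher, 5 with all arrays, were 2 without dim probe sets (13 members left), 3 with cyclic loess normalization and 3 with 1 symbol only (15 members left). The shares over all probe sets are not given for these settings or for leaving out 1 array. The counts therefore do not show whether the members changed more or less than other probe sets. With lamina propria pools 1 and 2 left out they were 14 (45.2%, against 24.8% of all probe sets), with 3 lower (9.68%, against 26.5%), and the median of kappa V with J or constant was 0.11. Without dim probe sets the median was -0.82 for constant and 0.70 for heavy V with constant, over the 4 and 2 probe sets left. The cause of the changes with cyclic loess normalization and array weights was not tested.

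Differences that changed sign were small or rested on 1 pool. With quantile normalization they were -0.08 (Ighv3-6), -0.04 (Iglv1 10438415) and -0.03 (Igkv19-93 10545182). With cyclic loess they were -0.24 (Ighv3-6), -0.24 (Iglv1 10438415), -0.10 (Igkv9-120 10538882), 0.00 and -0.21 (Igkv19-93), -0.05 (Igkv5-43) and -0.10 (Igkv6-14). With array weights, 0.19 for lamina propria pool 3, they were -0.93 (Igkv1-133), -0.65 and -0.29 (Igkv9-120 10538880 and 10538921) and -0.02 (Igkv19-93 10545177). With lamina propria pools 1 and 2 left out they were 0.11 and 0.58 (Ighm 10402864 and 10402991), 0.10 (Igha 10403021), -0.25 (Iglv1 10438415), -0.25 (Igkv9-120 10538882), -0.12 (Igkv4-59 10545194), -0.21 (Igkv4-55) and -0.18 (Igkv5-43). Leaving out 1 array, ranges that crossed or touched 0 were -0.07 to 0.07 (Ighm 10402864), -0.07 to 0.09 (Ighv3-6), -0.49 to 0.12 and -0.24 to 0.40 (Iglv1), -0.77 to 1.77 (Igkv1-133), -0.93 to 0.95, -0.08 to 0.40 and -0.31 to 1.27 (Igkv9-120), -0.13 to 0.27 and 0.00 to 0.06 (Igkv19-93 10545177 and 10545182), -0.19 to 0.73 (Igkv5-43) and -0.06 to 0.28 (Igkv6-14).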
